A study of Drosophila melanogaster with 2 samples.

Results

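In whole Drosophila prepupae carrying a GFP-tagged CG10631, 1158 of the 8399 reproducible peaks lay in sequence between genes and far from every gene start. These distal intergenic peaks made up 13.8% of the list (Wilson 95% interval 13.1 to 14.5%). A peak was counted when its summit, the position of highest enrichment, lay over 2 kb from any annotated transcription start site and outside every annotated gene body. Transposable element genes were not counted as genes. The members were 30.7% of the 3770 peaks over 2 kb from a start, the other 2612 of which lay inside genes. They were 37.4% of the 3093 peaks that lay between genes at any distance.

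The study profiled the binding of CG10631 by chromatin immunoprecipitation and sequencing (ChIP-seq) in white prepupae, the stage that begins metamorphosis. All material came from a single transgenic line that makes CG10631 with GFP at its C-terminus, and sonicated chromatin was precipitated through the GFP tag with an anti-GFP antibody. The labels number the biological replicates 2 and 3, give no sex, and define 1 group, so no contrast between conditions exists. Whole animals were used, so the tissue in which any region was occupied cannot be told, and no untagged line was analysed here.

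The DNA between insect genes holds many of their regulatory elements. Enhancers, stretches bound by transcription factors that raise a gene's transcription from a distance, can lie in such gaps many kilobases from the start they act on, and genes with varied expression in development often have several. In the prepupa a pulse of the steroid hormone ecdysone drives cell death in larval tissues and the growth of adult structures from imaginal discs. CG10631 itself is annotated by RefSeq as an uncharacterized protein encoded on arm 2L.

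Sequences around 8 summits are shown because they carry the base composition described further on. They are forward-strand sequences of the dm6 assembly from RefSeq, 5′ to 3′, with the summit as the middle base. Capitals mark CAGTGC or its reverse complement GCACTG. The first 5 are summits of 3 of the strongest members and the strongest members of 2 crowded gaps, and none of these holds the word within 100 bp. The last 3 are the strongest members with the word on both sides of the summit, pointing away from it. These rankings are among members of the chromosome arms from which sequence is shown, not among all members.
COX7AL2 to CG31668, chr2L:2202323-2202523: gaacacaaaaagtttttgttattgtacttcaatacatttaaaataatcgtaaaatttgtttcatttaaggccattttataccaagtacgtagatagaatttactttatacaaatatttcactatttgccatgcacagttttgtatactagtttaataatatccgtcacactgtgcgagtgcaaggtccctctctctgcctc
CG43245 to lncRNA:CR44544, chr3L:10776466-10776666: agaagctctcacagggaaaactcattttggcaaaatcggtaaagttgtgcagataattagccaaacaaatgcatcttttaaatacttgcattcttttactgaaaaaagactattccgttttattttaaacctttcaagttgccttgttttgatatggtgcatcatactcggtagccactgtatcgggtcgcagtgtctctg
hid to lncRNA:CR45234, chr3L:18190551-18190751: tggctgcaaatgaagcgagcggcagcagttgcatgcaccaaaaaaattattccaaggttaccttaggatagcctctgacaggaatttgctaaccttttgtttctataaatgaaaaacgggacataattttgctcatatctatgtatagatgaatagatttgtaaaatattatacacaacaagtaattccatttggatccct
NijA to CG43245, chr3L:10739826-10740026: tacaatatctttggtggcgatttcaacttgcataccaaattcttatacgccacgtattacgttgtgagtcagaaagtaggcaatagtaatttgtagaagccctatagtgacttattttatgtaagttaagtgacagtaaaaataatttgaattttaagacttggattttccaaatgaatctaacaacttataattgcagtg
Qsox2 to Eip93F, chr3R:21937179-21937379: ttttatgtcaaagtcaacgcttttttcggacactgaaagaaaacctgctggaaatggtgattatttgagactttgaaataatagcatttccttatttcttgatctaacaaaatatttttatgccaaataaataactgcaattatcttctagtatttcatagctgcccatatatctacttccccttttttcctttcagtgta
hh to unk, chr3R:23149104-23149402: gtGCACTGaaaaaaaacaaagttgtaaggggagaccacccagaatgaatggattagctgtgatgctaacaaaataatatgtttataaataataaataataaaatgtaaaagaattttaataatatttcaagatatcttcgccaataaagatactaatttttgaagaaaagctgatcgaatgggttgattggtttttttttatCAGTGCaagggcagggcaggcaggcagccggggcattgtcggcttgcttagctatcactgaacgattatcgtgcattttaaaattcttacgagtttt
lncRNA:CR45565 to lncRNA:CR45052, chr3R:31698215-31698513: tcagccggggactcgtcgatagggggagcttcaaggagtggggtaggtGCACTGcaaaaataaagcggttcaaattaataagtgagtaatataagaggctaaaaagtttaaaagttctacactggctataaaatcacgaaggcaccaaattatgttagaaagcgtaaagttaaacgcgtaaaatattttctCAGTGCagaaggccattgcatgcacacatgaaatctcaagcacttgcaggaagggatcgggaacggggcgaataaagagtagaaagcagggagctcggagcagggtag
Pex7 to hry, chr3L:8657419-8657717: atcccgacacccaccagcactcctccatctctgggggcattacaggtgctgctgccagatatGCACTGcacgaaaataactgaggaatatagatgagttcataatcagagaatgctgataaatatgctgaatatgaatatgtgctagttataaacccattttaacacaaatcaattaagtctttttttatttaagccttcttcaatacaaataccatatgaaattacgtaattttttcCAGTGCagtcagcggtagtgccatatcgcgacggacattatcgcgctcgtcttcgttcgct
The middle of each stretch is rich in A and T. In the last 3, GCACTG stands on the left and CAGTGC on the right, with a run rich in A beside the former and a run rich in T beside the latter, both on the side nearer the summit.

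The summits lay a median of 5506 bp from the nearest start site, with quartiles at 3454 and 9039 bp. Of the members, 54.4% were over 5000 bp away, 20.9% over 10000 bp and 4.92% over 20000 bp, and the farthest was 43194 bp away. The nearest start belonged to a protein-coding gene for 62.3% of members and to a noncoding RNA gene for 34.5%. The summit lay upstream of that start in 56.1% (53.3 to 59.0%). Signal was alike on both sides of the rule's limit: the 106 members within 500 bp above the limit had a median signal of 174, against 183 for the 146 intergenic peaks within 500 bp below it. The 5 members just over the limit, at 2001 to 2012 bp, had signals of 128 to 351. The 5 intergenic peaks just under it, at 1960 to 1992 bp, had signals of 131 to 397. These signals are the authors' enrichment values in the list built from both replicates, compared here only among regions of one list.

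Most gaps between genes held no member, and the occupied ones were long. The annotation left 12189 gaps, of which 3142 contained sequence that met the distance rule (eligible sequence, 29.1 Mb). Members lay in 501 of these gaps, 15.9% (14.7 to 17.3%). The occupied gaps had a median length of 13021 bp against 6002 bp for all eligible gaps. Weighted by members, the median was 17672 bp, with quartiles at 10506 and 28063 bp. The shortest occupied gap measured 290 bp and the longest 113115 bp.

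Density was similar in gaps up to 20 kb, lower in longer ones and close to 0 in the longest. It was 39.8 members per Mb of eligible sequence overall. Gaps up to 5 kb held 56.2 per Mb, those of 5 to 10 kb 56.4, and those of 10 to 20 kb 62.5. The value was 45.9 at 20 to 50 kb and 26.1 at 50 to 100 kb. The 27 gaps over 100 kb contained 20.2% of the eligible sequence but only 2 members, or 0.341 per Mb. Both lay between CG10651 and lncRNA:CR40341 on 2L. The longest gap with no member, 711 kb between CG42598 and CG40228 on 3L, held 2 regions of the combined list, which reaches far below the reproducible peaks. In gaps over 100 kb transposable elements covered 15.1% of the length and undetermined bases 3.20%, against 7.36% and 0.000590% in gaps up to 20 kb. Their part in the low count was not tested. Over the whole set, 1 member had its summit in an annotated transposable element, while such elements cover 10.9% of the length of eligible gaps.

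**Figure D1:**
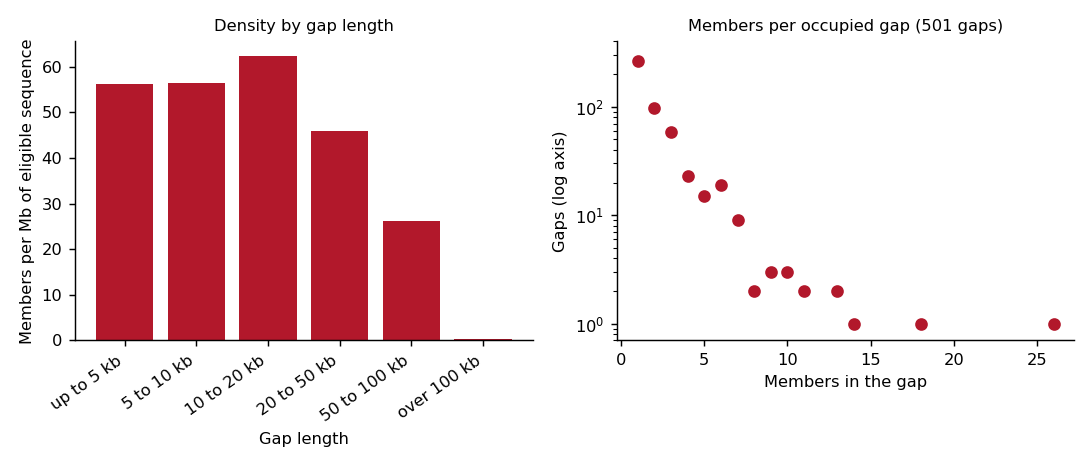
Left, distal intergenic peaks per Mb of eligible sequence (bars, from 0) by length of the gap between genes. Density is between 45.9 and 62.5 per Mb in gaps up to 50 kb and 0.341 in gaps over 100 kb. Right, number of gaps (points, log axis) against the members they hold, from 264 gaps with 1 member to a single gap with 26.

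Most members shared their gap with another member, which is called crowding here. Of the 501 occupied gaps, 264 held 1 member, 97 held 2 and 59 held 3. Gaps with at least 2 members, 237 in number, took in 77.2% of members (74.7 to 79.5%) and 14.4% of the eligible sequence. The 58 gaps with at least 5 took in 37.2% of members and 5.01% of that sequence. The 10 gaps with at least 10 took in 11.7% and 1.56%. These gaps were chosen by their counts, which by itself raises their share of members above their share of sequence. Whether members placed at random would crowd as much was not tested. Within a gap, neighbouring summits lay a median of 1801 bp apart, with quartiles at 820 and 3906 bp, and 82.3% of the 657 neighbouring pairs were under 5000 bp apart.

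A small part of this crowding came from overlapping entries. In 70 of the 657 pairs, 10.7%, the peak intervals themselves overlapped, with summits a median of 202 bp apart, and the weaker entry had a median of 0.643 of the signal of the stronger. When overlapping peaks of the list were merged and the strongest summit kept, 1081 members remained, of which 74.5% shared their gap with another.

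The gap with most members lay between NijA, which encodes a ninjurin cell-surface protein, and CG43245 on 3L (chr3L:10696878-10771924, 75.05 kb). It held 26 members over 62661 bp, with signals from 102 to 869 and a median of 176. They formed 3 bands at 7.83 to 23.1 kb, 38.4 to 44.1 kb and 54.0 to 70.5 kb from the NijA edge. The strongest, at 43.0 kb, had signals of 445 in replicate 2 and 430 in replicate 3. By each replicate's own strongest 8399 regions, this gap again came first, with 22 members in replicate 2 and 24 in replicate 3. Some of its 26 members overlapped, and 21 remained after overlapping ones were merged.

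The second gap, between Aps and lncRNA:CR45248 (chr3L:10899124-10959230, 60.1 kb), held 18 members (16 after merging) with a top signal of 446. It lies on the same arm as the first, and a stretch of 264 kb that includes both held 55 members in 7 gaps.

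The 14 members (11 after merging) between Qsox2, a sulfhydryl oxidase gene, and Eip93F (chr3R:21915547-21949113, 33.6 kb) lay 5.17 to 26.0 kb from the Qsox2 edge. Eip93F encodes an ecdysone-induced transcription factor of metamorphosis that directs adult programs and larval cell death. The strongest had a signal of 755, with 368 in replicate 2 and 384 in replicate 3, and its summit lay 11835 bp from the nearest Eip93F start. A second summit, 25.98 kb from the Qsox2 edge, reached 744, and the next values in the gap were 469 and 431.

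The densest of the leading gaps was the 18.7 kb between CG18404 and lncRNA:CR46113 (chr3R:30254098-30272761). Its 13 members had a median signal of 378, more than that of any other of the 12 most crowded gaps, and the strongest pair reached 988 and 983. No 2 of its 13 intervals overlapped. The gap between tRNA:Ile-TAT-1-2 and CG13898 on 3L also held 13 members, with a median of 185 and a maximum of 852. The gap between CG43402 and CG31928 on 2L held 11 (10 after merging), with a median of 255 and a maximum of 382.

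**Figure D2:**
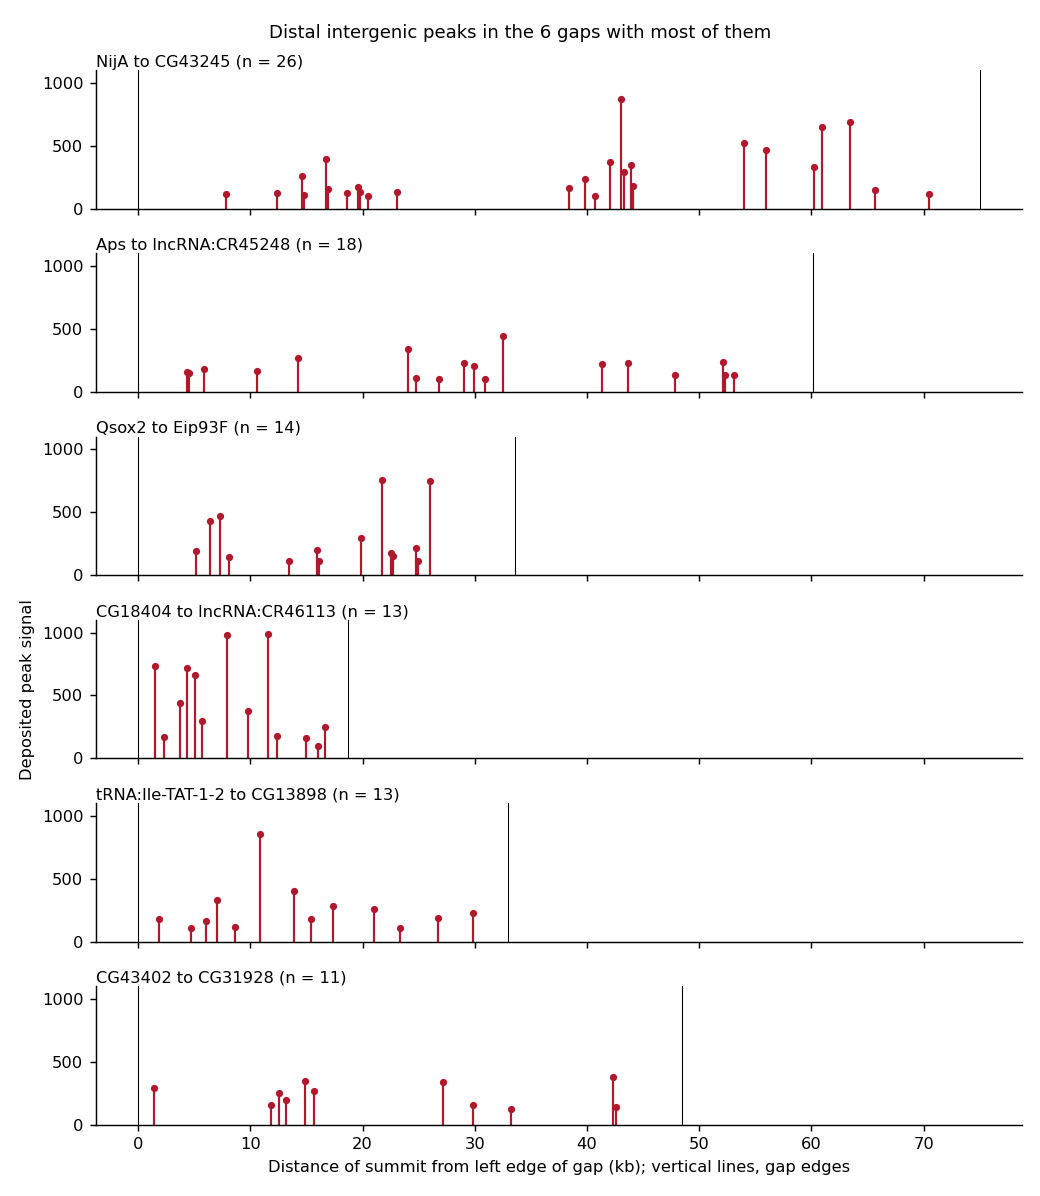
Each stem is a distal intergenic peak, placed by the distance of its summit from the left edge of the gap (kb) and drawn to its deposited signal in the combined list. The 6 gaps with most members are shown, from 26 in the gap beside NijA to 11 in the gap beside CG43402, with vertical lines at the gap edges.

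Occupancy differed among long gaps. The 82.6 kb gap from AOX4 to CG43335 held 10 members and the 70.5 kb gap beside vvl, which encodes a POU-domain transcription factor, held 11. The 73.5 kb gap from lncRNA:CR46353 to rpr held 2, with signals of 123 and 130. rpr encodes a small protein that triggers apoptosis.

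Crowding also reached across neighbouring gaps. Windows of up to 300 kb with most members were picked after their counts were seen, and the 6 richest took in 228 members, 19.7%. Of these, 4 were on 3L. The first holds the NijA and Aps gaps. Another, of 213 kb, held 43 members in 10 gaps, among them the one beside tRNA:Ile-TAT-1-2. The third, of 241 kb, held 43 members in 13 gaps and includes scyl and chrb, stress-induced inhibitors of TOR signalling. The fourth held 29 members in 8 gaps around the cell-death genes hid and rpr. On 3R, a window of 29 members includes ems, a homeobox gene of head development, and another of 29 includes Eip93F.

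The strongest member of all lay on 2R between Su(z)2 and CG13323 at position 13035348, with a signal of 3125 that ranked 3rd in the whole list. It measured 1538 in replicate 2 and 1609 in replicate 3. In a gap on the same arm, between CG13321 and Psc, a member at 12959423 had a signal of 1043, with 471 and 568. Psc and Su(z)2 are neighbouring Polycomb group genes, whose products silence developmental genes. The first of these summits lay 27437 bp from Su(z)2 and 9347 bp from CG13323.

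The next 2 members had nearly equal signals. The one between COX7AL2 and CG31668 on 2L reached 2202, with 1032 in replicate 2 and 1176 in replicate 3. The one between CG43245 and lncRNA:CR44544 on 3L reached 2199, with 1066 and 1148, and lies beside the NijA gap. Below them the signals dropped to 1096 and less.

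At the hid locus, the strongest of 5 members had a signal of 1096, with 563 in replicate 2 and 537 in replicate 3. Its summit lay 5010 bp upstream of hid, which encodes an activator of apoptosis that acts in the death of larval tissues. A lone member 2084 bp upstream of Gbs-70E, which encodes a glycogen-targeting subunit of protein phosphatase 1, had 1082. Only 2 of the 20 strongest members were alone in their gap. The Tollo to Best4 gap held a member of signal 977, lying 17.9 kb from Tollo, which encodes a Toll-family receptor.

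Both replicates gave most members, but the reproducible list was itself made from these 2 replicates through a comparison of reproducibility. The values below therefore depend on how the list was made and are not independent evidence of agreement. Among the 8399 strongest regions of each replicate, 943 of 1158 members (81.4%, 79.1 to 83.6%) were overlapped in both, 105 in replicate 2 only, 103 in replicate 3 only and 7 in neither. For peaks inside genes the share was 82.2%, a difference of −0.73 points (−3.47 to 1.89). Ratios of replicate 3 to replicate 2 were taken after a median ratio was divided out, which by itself brings their middle near 1. The median of these rescaled ratios was 0.993 over 1153 members with a region in both. The rescaled ratio exceeded 1.5-fold either way in 152 of them, 13.2%, against 10.1% of peaks inside genes (difference 3.13 points, 0.93 to 5.48). Without rescaling, the median signal of members was 83.5 in replicate 2 and 86.3 in replicate 3. Spearman's rho between replicates was 0.817 across members, which share libraries and are not independent.

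**Figure D3:**
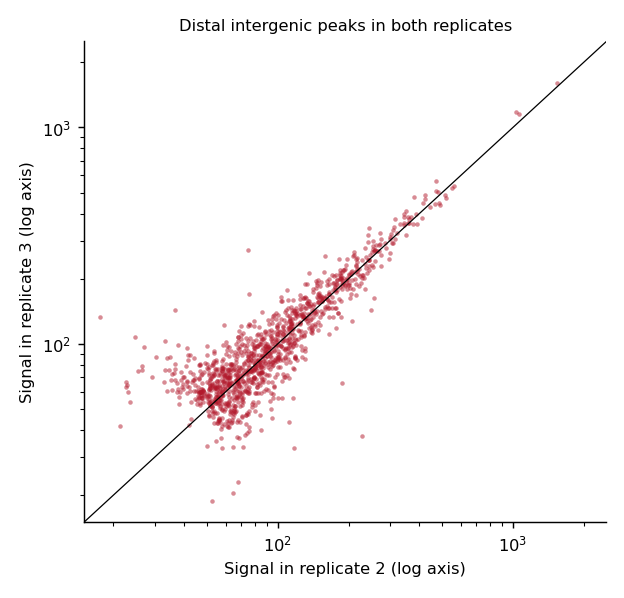
Deposited signal of each distal intergenic peak in replicate 2 (x) and replicate 3 (y), both on log axes, with the line of equality. The signals were not rescaled. The 1153 members with a region in both replicates follow the line, and the widest scatter is among weak members. Members come from a list that was made from these same replicates.

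The lowest ratio of replicate 3 to replicate 2 was at a member between lncRNA:CR44750 and Grx1t, with 228 in replicate 2 and 37.5 in replicate 3. Its combined signal was 103, less than its value in replicate 2. Each member took the overlapping replicate region with the nearest summit, so a replicate value can belong to a neighbouring peak. The opposite extreme lay between lncRNA:CR45693 and tRNA:Gly-GCC-1-4, with 17.5 in replicate 2 and 132 in replicate 3. In the Aps gap a member of combined signal 205 had 118 and 32.9. Of the 5 members with no region in one of the replicates, 4 lacked one in replicate 3. The exception, between CG7557 and CG12289, had 200 in replicate 3 and lacked a region in replicate 2.

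Distal intergenic peaks were weaker than the other classes. Their median signal was 168, against 179 for distal peaks inside genes, 188 for peaks 500 to 2000 bp from a start and 225 for promoter peaks. Of the members, 67 were among the 1000 strongest peaks, 5.79% (4.58 to 7.28%). For distal peaks inside genes this was 8.19%, a difference of −2.41 points (Newcombe 95% interval −4.05 to −0.61), and for promoter peaks 18.7%, a difference of −12.9 points (−14.9 to −10.9). By signal in replicate 2 alone the difference from distal peaks inside genes was −2.33 points (−3.97 to −0.54), and in replicate 3 it was −2.29 (−3.93 to −0.50). Peaks are not independent replicates, so all these intervals cover counting error only.

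Signal also varied with crowding. Members alone in a gap had a median of 144, and members in gaps with at least 5 had 182. Among the former 3.03% (1.54 to 5.86%) were in the 1000 strongest, and among the latter 6.73% (4.73 to 9.50%). No interval of this difference was computed, and the overlap of the single intervals does not decide it. Members over 10 kb from a start had a median of 156 against 170 at 2 to 5 kb.

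Weaker enrichment in the combined list, below the reproducible peaks, followed the same gaps. Of its 21601 weaker regions, 4223 (19.6%) met the distance and gap rules, more than the 13.8% of the reproducible list. Of these 4223, 50.6% (49.1 to 52.1%) lay in a gap with a member, while those gaps hold 24.2% of the eligible sequence. The others reached 971 gaps without a member, so 46.8% of eligible gaps held a region of some strength. The 24.2% is a low reference, since gaps over 100 kb hold 20.2% of the eligible sequence and almost no regions. There, 3.24 regions of the combined list per Mb met the rules, against 278 in gaps up to 20 kb. The share of regions meeting the rules was 11.96% among the 5000 of highest signal and 20.2% among the 10000 of lowest. The weakest member had a signal of 100.1 and the strongest of the weaker regions 99.998.

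Members were unevenly shared among chromosome arms. Arm 3L held 410, or 54.6 per Mb of eligible sequence, 2L held 231 (45.3), 3R 257 (43.2), X 108 (25.7) and 2R 151 (24.6). Chromosome 4 held 1. As a share of each arm's peaks, members were 21.2% on 3L and 11.6% on the other arms together, a difference of 9.58 points (7.64 to 11.6). On X they were 6.75%, against 15.5% on the autosomal arms, a difference of −8.76 points (−10.2 to −7.18). Without 3L the autosomal share was 13.2% and the difference −6.49 points (−7.99 to −4.87). On X 38.7% of peaks were distal peaks inside genes, against 29.4% on the autosomal arms. In each replicate's own list the share was 20.6% on 3L and 6.43 to 6.90% on X. Outside its 4 dense windows, 3L held 240 of its 410 members, or 34.1 per Mb. The windows were picked for their counts, and gaps only partly inside a window stayed in that sequence. Both lower this value by construction. The sex of the animals was not collected.

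The genes on either side were 913 in all, of which 596 (65.3%) were protein-coding and 291 made noncoding RNAs. In 68 occupied gaps (13.6%) no flanking gene was protein-coding. An orientation could be assigned to 494 of the occupied gaps and to 3074 of all eligible gaps. Gaps between divergent genes, whose starts face the gap, were 24.3% of the former and 16.9% of the latter. Convergent ones were 27.9% and 39.2%, and tandem ones 47.8% and 43.9%. Convergent eligible gaps were also shorter, with a median of 1885 bp against 9364 bp for divergent and 7092 bp for tandem ones. Of 1559 eligible gaps over 4 kb without a member, 25.7% were divergent, 22.5% convergent and 51.9% tandem. Beside these longer gaps the occupied ones had no larger share of divergent pairs. Their convergent share was the higher one (24.2 to 32.1% against 20.4 to 24.6%). These are intervals of the single shares, whose overlap does not decide whether the shares differ, and no interval of the difference was computed. Density was 57.0 members per Mb in divergent gaps, 39.0 in convergent and 38.0 in tandem gaps. Of all protein-coding genes 4.27% lay next to a gap with a member, and of the 3955 next to an eligible gap 15.1% did. The counts of gene groups below read against the latter, since a group can gain a member only beside an eligible gap. The groups also differ in the length of their gaps, so members per Mb are given beside the counts.

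Genes of developmental patterning often had members beside them. Among segmentation transcription factors, which divide the embryo into segments, 10 of 17 next to an eligible gap had a member (58.8%, 36.0 to 78.4%), with 98.8 members per Mb. The gap from Pex7 to hry, the pair-rule repressor gene hairy, held 7 of the 9 members beside that gene, the strongest with a signal of 531 and 260 and 270 in the replicates. odd had 3 members beside it (up to 462) and tll, a gene of terminal patterning, had 4 (up to 319). en had 8 members on its 2 sides, and 2 of them lay in the gap it shares with its paralog inv.

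Secreted signalling ligands had a member beside 12 of 20 genes (60%, 38.7 to 78.1%), and their gaps held 35 members, or 141 per Mb. The single member between the Wnt genes Wnt6 and Wnt10 reached 736, with 376 in replicate 2 and 358 in replicate 3. Another 8 members flanked wg, the founding Wnt gene. Beside hh, the Hedgehog ligand gene, 2 members lay in a 7.75 kb gap, the stronger at 592 and 7347 bp from the nearest hh start. Ser, a Notch ligand gene, had 7 members beside it. The gap shared by pyr and ths, a pair of FGF genes, held 5.

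Imaginal disc selector and patterning factors, which give disc cells their identity, had members beside 14 of 29 genes (48.3%, 31.4 to 65.6%), at 77.7 per Mb. H15 and mid, T-box paralogs, had 5 and 6, with top signals of 403 and 349. The 39.3 kb gap between the paralogs bab1 and bab2 held 2, the stronger at 364. salm and Lim1 had 5 each.

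Ecdysone response regulators had members beside 4 of 10 genes (40.0%, 16.8 to 68.7%). Of the 18 members in their gaps, 14 were in the Eip93F gap, so their 267 per Mb describes mainly that gene. Blimp-1, a repressor that times the ecdysone response, had 2 beside it, the stronger at 555, Eip78C had 1 at 262 and Hr38 had 1 at 142. Neural fate factors had members beside 8 of 19 genes (42.1%, 23.1 to 63.7%), at 59.96 per Mb, with 8 beside ems.

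Hox, synaptic recognition and chemoreceptor genes were below the background both by share of genes and by members per Mb, but the intervals of all 3 shares held 15.1%. None of the 7 Hox genes next to an eligible gap had a member, but 0 of 7 allows a share of up to 35.4%, and their gaps hold 0.0344 Mb of eligible sequence. Synaptic recognition immunoglobulin genes, the dpr, DIP, beat and side families that label neurons, had members beside 4 of 47 (8.51%, 3.36 to 19.9%). Their 68 gaps hold 1.37 Mb of eligible sequence with 4 members, or 2.91 per Mb, with 5 and 4 in the lists of replicates 2 and 3. The strongest, beside dpr17, had a signal of 388, and the other 3 had 114 to 122. Chemoreceptor genes had members beside 8 of 71 (11.3%, 5.82 to 20.7%), at 31.0 per Mb, and 11 of the 21 members in their gaps lay on the 2 sides of Gr93a, in the dense window that includes Eip93F. Of these, 5 lay between Gr93a and Gr93b and 6 between lncRNA:CR45632 and Gr93a.

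In the other 4 groups the share of genes was above 15.1%, with intervals that held this value. Muscle and mesoderm factors had members beside 2 of 12 genes (16.7%, 4.70 to 44.8%), at 48.0 per Mb. They were htl, an FGF receptor gene, with 5 members, and lbe with 1. Cuticle protein genes had members beside 6 of 30 (20%, 9.51 to 37.3%), at 54.1 per Mb or 7 members in all, the strongest beside Cpr51A at 490. Ion channel and acetylcholine receptor genes had members beside 5 of 22 (22.7%, 10.1 to 43.4%), at 16.2 per Mb. Cytosolic ribosomal protein genes had members beside 3 of 16 (18.8%, 6.59 to 43.0%) but only 7.40 members per Mb, with signals of 121 to 131.

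**Figure D4:**
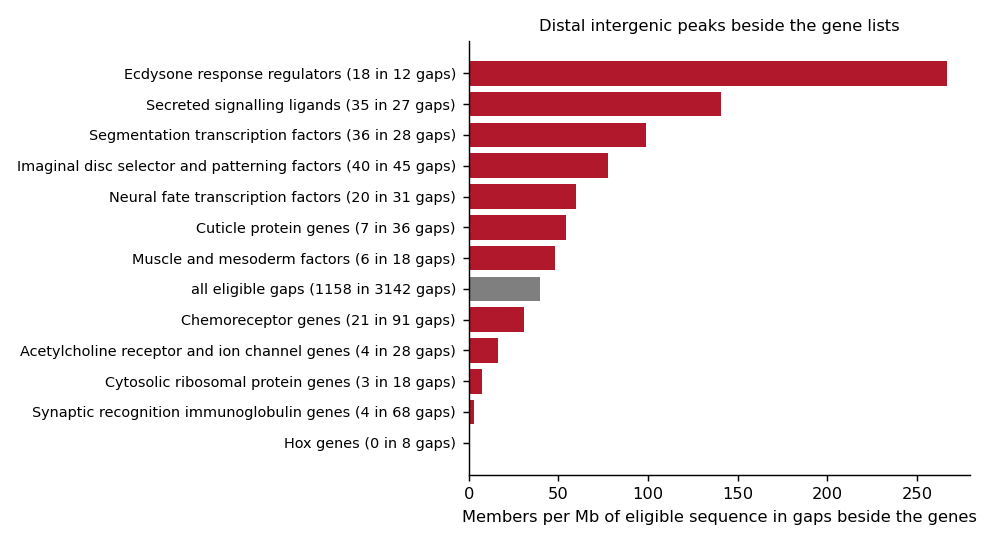
Distal intergenic peaks per Mb of eligible sequence in the gaps beside each gene group (red bars) and in all eligible gaps (grey bar, 39.8). The labels give members and gaps. Values run from 0 beside Hox genes and 2.91 beside synaptic recognition immunoglobulin genes to 267 beside ecdysone response regulators, where 14 of 18 members are in the Eip93F gap.

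The summits were poor in G and C. GC content within 100 bp of the summit averaged 33.4% ± 6.14 (SD over 1158 members), against 44.4% ± 5.77 in windows of the same size centred 500 bp away. The difference was −10.98 points (−11.47 to −10.49), and 90.8% of members were lower at the summit. For distal peaks inside genes the difference was −9.52 points, which the value at members exceeded in depth (difference −1.46 points, −2.04 to −0.87). It did not differ beyond its interval from that at promoter peaks (0.30 points, −0.33 to 0.93). Eligible sequence over 2 kb from gap edges had a GC content of 41.0%. The flanks 500 bp away were richer in G and C than sequence farther out. Mean GC content at members was 47.9% at an offset of 275 bp, 44.6% at 500 bp and 41.4% at 1000 bp. Against flanks 1000 bp away the difference at summits was −7.81 points (−8.28 to −7.34).

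Short words were counted on both strands in the same windows. Of 19 motifs searched, 9 were held by more summits than flanks and 4 by fewer, by intervals that were not adjusted for the number of motifs. The word AATATA stood within 100 bp of 47.8% of summits and in 16.2% of flank windows. The TATA box word TATAAA was held by 42.5% and 17.3%. CAGTGC was held by 24.1% (21.7 to 26.6%) against 7.94%. The GATA word GATAA (40.8% against 28.8%), the homeodomain core TAATTA (17.7% against 13.5%), a run of A written AAAAAAA (27.6% against 17.1%) and the Su(Hw) core GCATACTT (1.81% against 0.52%) were also held by more summits. So were the AP-1 word TGANTCA (5.01% against 3.50%) and the nuclear receptor word AGGTCA (4.58% against 2.94%). The GAGA element GAGAG (18.8% against 22.4%), the CA repeat CACACA (10.97% against 18.5%), the E-box CAGCTG (3.89% against 8.46%) and the Pho core GCCAT (24.2% against 38.6%) were held by fewer. For the other 6 words the interval of the difference held 0: they were the DREF element TATCGATA, the BEAF-32 core CGATA, the E-box CACGTG, the Zelda word CAGGTAG, the Ftz-F1 word CAAGGTCA and the Forkhead core TGTTTAC. A word in a window is a description of its letters and not a binding site, and words rich in A and T move with the GC content given above.

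Against distal peaks inside genes, AATATA was held by more members (4.72 points, 1.28 to 8.17) and CACACA by fewer (−3.05 points, −5.22 to −0.73). Both kept that side in each replicate's own list. The difference for CAGTGC was 3.69 points (0.83 to 6.64) in the reproducible list. It was 3.03 (0.21 to 5.96) in the list of replicate 3 and 2.34 (−0.46 to 5.24) in that of replicate 2. TATAAA (3.70 points, 0.32 to 7.12) likewise had an interval that held 0 in 1 replicate, and so did TGTTTAC (−1.73, −3.00 to −0.31). At promoter peaks CAGTGC was held by 14.2%.

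CAGTGC, unlike the AT-rich words, is not itself poor in G and C, and it stood beside the summit rather than on it. This arrangement was examined after the share above was seen. In members the word occurred 0.855 times per kb within 50 bp of the summit, 2.10 times between 50 and 100 bp, 1.26 times between 100 and 150 bp and 0.499 times between 300 and 600 bp.

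Its direction mostly went with the side it was on. Of the 243 matches 50 to 100 bp from a member's summit, 203 (83.5%, 78.4 to 87.7%) read CAGTGC away from the summit, that is, on the forward strand to the right and on the reverse strand to the left. Between 100 and 150 bp 73.3% (65.6 to 79.8%) did so, and between 300 and 600 bp 53.9% (48.6 to 59.1%). In distal peaks inside genes the share at 50 to 100 bp was 77.5% of 448, a difference of 6.08 points whose interval held 0 (−0.24 to 11.9). In promoter peaks it was 60.5% of 248, a difference of 23.1 points (15.2 to 30.5). From each replicate's own list, the share at members was 85.5% for replicate 2 and 85.2% for replicate 3.

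Bases beside the outward matches were not even. Counting back from the C of CAGTGC towards the summit, T was found at positions −7, −6, −5 and −3 in 80.8%, 84.7%, 83.3% and 76.8% of the 203 matches. C or T took most of positions −4 (43.3% each) and −2 (48.3% and 37.9%). The base after the word was A in 73.9%. In the 339 matches 300 to 600 bp away that could be read, T held 25.7% of position −7 and 28.6% of position −6. The run of T can be seen before CAGTGC in the hh and hry sequences printed above.

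Most members did not have this arrangement. An outward match lay within 150 bp on both sides of the summit in 49 members (4.23%, 3.22 to 5.55%), on 1 side in 283 (24.4%) and on neither in 826 (71.3%). In distal peaks inside genes both sides had one in 2.64% (2.09 to 3.33%), and in promoter peaks in 0.763% (0.495 to 1.18%). The word in either direction within 100 bp was also counted, which does not measure the outward arrangement. Its share did not rise or fall steadily with signal: in 4 groups of members from weak to strong it was 23.1%, 20.1%, 28.4% and 24.8%. In either direction the word was held by 25% of members alone in their gap and by 22.5% of those in gaps with at least 5. On the 5 large arms 21.8 to 27.8% of members held it.

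**Figure D5:**
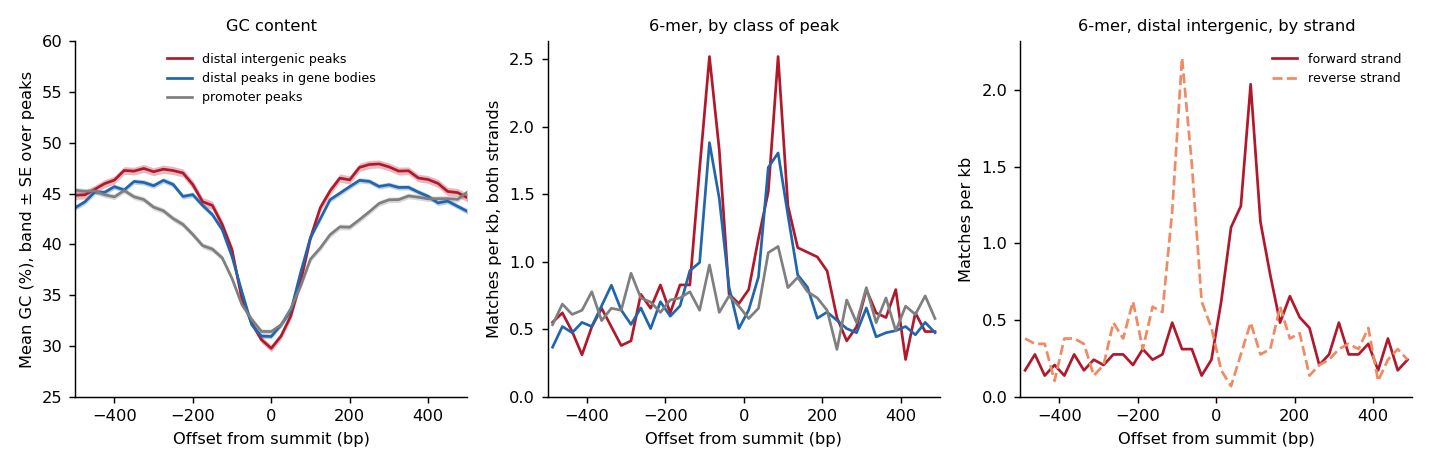
Left, mean GC content (%, band ± SE over peaks) by offset from the summit (bp) for distal intergenic peaks, distal peaks inside genes and promoter peaks. Middle, matches of the 6-base word CAGTGC per kb in the same classes, with a peak on either side of the summit that is highest in distal intergenic peaks. Right, the same word in distal intergenic peaks by strand. At 50 to 100 bp, most forward-strand matches stand to the right of the summit and most reverse-strand matches to the left.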

How the data were processed

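Per the text files deposited with the samples, each replicate's list of regions derives from its alignments and a further file that also enters the control-normalized signal. A combined list was made from both replicates, and the reproducible list came from an irreproducible discovery rate (IDR) comparison. Which aligner and caller were used, at which IDR threshold, is not given in the sources used here. The signal of a region is the authors' deposited enrichment value, of unstated scale, and read depth is unknown. The 2 samples are biological replicates of 1 group. No test between groups was possible and no p-values were computed.

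The BDGP6.54 annotation and the dm6 sequence from RefSeq gave gene bodies, start sites, gaps and bases on the 6 main chromosome arms (18164 genes, 13945 of them protein-coding, and 5809 transposable element genes left out). Positions are 1-based dm6. Python 3.11.15, numpy 2.4.6 and pandas 2.3.3 were used. Shares have Wilson and their differences Newcombe 95% intervals, and differences of mean GC content have normal intervals. Replicates were compared through their 8399 strongest regions with at least 1 bp of overlap. Leaving out a replicate meant applying the rule to those regions of the other one. The classification and the intervals were tested on simulated data. Promoter peaks had summits within 500 bp of a start.

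The members, the gene lists and the motifs were chosen with earlier results of these data known. Genes named are those beside the 20 strongest members, the gaps with most members, the longest gaps, and up to 3 genes per list with the strongest member beside, with a few further list genes named after their values were seen. hry, Delta and sli stand in the lists for older names of these genes. Alternatives changed the distance, the genes counted, the peak list, the overlap and the windows.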

Additional observations from a re-analysis of the deposited data

How the results depend on the processing

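The number of members depended on the rule. It was 1495 at over 1 kb from a start (17.8% of peaks), 630 at over 5 kb (7.50%) and 1591 with protein-coding genes only (18.9%). Requiring the whole interval to meet the rule left 12.99% of peaks, and the stronger 50% of the list held 478 members (11.4%). The share in gaps with 2 or more members ranged from 69.0% in the stronger 50% to 84.5% with protein-coding genes only. It was 72.8% at over 1 kb, 79.7% at over 5 kb, 74.5% with overlapping peaks merged and 73.2% without the 6 dense windows, an alternative chosen after seeing the data. The median gap length was 14838 bp at over 1 kb, 23979 bp at over 5 kb, 26487 bp with protein-coding genes only and 16239 bp with transposable element genes counted. Density was 16.4 per Mb in the stronger 50%, which holds fewer peaks. It was 42.6 in gaps inside the span of the combined list and 51.2 in those up to 100 kb, both added after seeing the data. The share of protein-coding genes beside a member was 6.09%, 2.24%, 6.73% and 3.77% under those 4 gene and distance settings in the same order, and 2.18% in the stronger 50%.

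In the stronger 50%, 14.02% of members were among the 1000 strongest. The difference in that share from distal peaks inside genes was −1.01 points at over 5 kb and −3.85 in the stronger 50%, both with intervals that held 0, and the cause was not tested. Leaving out a replicate left the number of members at 1140 to 1161 and the difference at −2.55 to −2.46 points. The GC difference remained below 0 in every window, flank and replicate tried (−13.6 to −3.87 points). At flanks 1000 bp away 7 motifs were higher and 3 lower at summits. The AP-1 word, the nuclear receptor word, the homeodomain core and the GAGA element had an interval that held 0 in at least 1 alternative. The E-box CACGTG, whose interval held 0, was lower at summits by an interval below 0 in 50 bp windows (−1.15 to −0.06 points) and without replicate 3 (−1.97 to −0.24 points). No paired analysis was possible because there is 1 group. Precision is limited by 2 replicates, unknown depth and the lack of control data analysed here.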
